A study of Mus musculus with 2 samples.

Results

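The 8 transcription factors and cofactors Hlf, Mecom, Meis1, Hoxa9, Hoxb5, Mycn, Tcf15 and Mllt3 were followed through mouse bone marrow cells from wild-type and Nat10 conditional knockout animals. They were chosen by symbol, as genes known for their part in blood stem cells, and each symbol matched 1 of the 56748 genes counted. Earlier results of these data were known when they and the gene lists below were chosen, so their counts beside all genes are descriptions. Nat10 is the RNA cytidine acetyltransferase that writes the ac4C mark, and the series asks what its loss does to blood stem cells and their differentiation. Bone marrow of C57BL/6 mice was depleted of cells bearing lineage antigens, and the remaining Lin- cells, which include the stem and progenitor cells, were profiled by single-cell RNA sequencing of transcript 3′ ends. The 2 groups were WT (wild type) and Nat10 cKO (conditional knockout), with 1 library each. The series text names 5 independent mice, but no label ties a cell to a mouse, and the sources used here give neither the age of the mice nor the Cre driver or the deleted part of Nat10.

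A blood stem cell renews itself or gives rise to multipotent progenitors that then take on the myeloid, erythroid, megakaryocytic or lymphoid path. Hlf and Mecom are among the genes that mark the most immature cells and fall early in differentiation, while Meis1 and Hoxa9 act together with PBX proteins on shared DNA sites in stem cells, progenitors and leukaemias. Hoxb5 and Tcf15 have been used as reporters of long-term stem cells, Mycn shares the work of Myc in stem cell survival and growth, and Mllt3 reads acylated histones and recruits transcription elongation factors.

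With 1 library per genotype there was no replicate, so no test between genotypes was possible. Values are sums of UMIs (unique molecular identifiers, 1 per captured transcript) over the cells of a class and library, divided by all UMIs of those cells and scaled to 1000000 UMIs (CPM). The intervals are exact 95% intervals (Poisson for a level, conditional binomial for a ratio, binomial for a share) and cover counting error only, not the spread between mice or libraries. Those of levels and ratios pool UMIs over cells as if independent, so they leave out the spread between cells too and are too narrow where cells differ. A log2 ratio is cKO over WT with 0.5 UMI added to each sum, so a negative value is lower in the cKO library. A gene counted as measured when WT and cKO cells together gave 50 UMIs or more, and as lower or higher when past 1.5-fold, a statement about these 2 libraries only. CPM values are compared across cells for the same gene, never between genes.

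Of 15848 WT and 13479 cKO barcodes, 12537 and 11239 held at least 1000 UMIs and 500 genes with at most 10% mitochondrial UMIs. Of these, 592 and 544 were called doublets and removed, which left 11945 WT and 10695 cKO cells with medians of 18315 and 21450 UMIs. The libraries shared 67 barcodes, 40 of them among those that passed. Clusters were made without the 8 factors and named from fixed marker lists that do not contain them, which gave 11 classes that held 50 or more cells of each library. The stem and multipotent progenitor class (HSC/MPP-like, 566 WT and 342 cKO cells) had the listed markers Adgrl4, Myct1, Gcnt2 and Cd34 among its leading genes. The depth of its median cell was 21592.5 UMIs in WT and 27531.5 in cKO. Nat10 itself was at 41.1 CPM in WT and 32.2 in cKO HSC/MPP-like cells (549 and 312 UMIs), a log2 ratio of -0.35 (-0.56 to -0.15). Since the deleted part is not named and these reads come from the 3′ end, that value does not check the genotype labels.

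In the HSC/MPP-like class as a whole, 5 of the 6 measured factors were at least 1.5-fold lower in the cKO library: Hlf, Meis1, Mecom, Mycn and Mllt3. Across all 12460 genes measured in these cells, 18.3% were lower and 4.89% higher by the same rule. The median log2 ratio of the 6 factors was -0.71, beside -0.18 for all genes. Hoxa9 was not lower. These whole-class ratios did not carry over to its 5 subclusters, in which Mecom and Hoxa9 were higher in the cKO library. Hlf and Meis1 were lower in some of the 5 subclusters and not in others, and how many depended on how finely the class was divided. In a finer division, with 4 subclusters large enough, Mecom was higher in 3 of 4 and the Hoxa9 interval lay above 0 in 1 of 4.

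Hlf, Mecom and Meis1 were lower in the whole class and Hoxa9 was not, but within its 5 subclusters Mecom was higher, as Hoxa9 was. Promoter sequences of these 4 factors are shown as description only. They are RefSeq sequences of build GRCm38.p6, minus strand, written 5′ to 3′ and ending at or before the start of the transcript, and capitals mark matches to the motifs searched. Each was searched on both strands for TGACGTCA (the CRE, bound by CREB and ATF factors), CCAAT (the box bound by NF-Y), GGGCGG (the GC box, bound by SP1 and KLF factors), TGACAG (a site of MEIS and PKNOX proteins), CCGGAA (an ETS core) and TGATAA (bound by GATA factors), and no matches overlapped here. Windows were cut where an annotated exon begins, so they differ in length. The Mecom window ends 63 bases short of its start, and a second Mecom start left no window by this rule.
Hlf, chr11:90390918-90391167: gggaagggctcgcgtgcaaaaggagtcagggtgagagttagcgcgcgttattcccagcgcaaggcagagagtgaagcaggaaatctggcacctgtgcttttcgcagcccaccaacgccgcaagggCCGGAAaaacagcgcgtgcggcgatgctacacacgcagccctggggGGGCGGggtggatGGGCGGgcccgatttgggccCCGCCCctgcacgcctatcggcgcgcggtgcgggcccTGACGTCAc
Mecom, chr3:30509823-30510009: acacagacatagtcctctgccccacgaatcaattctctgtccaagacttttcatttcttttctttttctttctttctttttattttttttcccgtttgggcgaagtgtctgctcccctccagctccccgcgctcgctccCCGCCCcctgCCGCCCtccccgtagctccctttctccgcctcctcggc
Meis1, chr11:19018986-19019219: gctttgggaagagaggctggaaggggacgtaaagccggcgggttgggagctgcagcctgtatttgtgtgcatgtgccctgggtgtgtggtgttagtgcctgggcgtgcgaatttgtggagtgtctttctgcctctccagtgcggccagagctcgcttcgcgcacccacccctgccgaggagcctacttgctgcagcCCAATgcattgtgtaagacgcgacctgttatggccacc
Hoxa9, chr6:52227371-52227620: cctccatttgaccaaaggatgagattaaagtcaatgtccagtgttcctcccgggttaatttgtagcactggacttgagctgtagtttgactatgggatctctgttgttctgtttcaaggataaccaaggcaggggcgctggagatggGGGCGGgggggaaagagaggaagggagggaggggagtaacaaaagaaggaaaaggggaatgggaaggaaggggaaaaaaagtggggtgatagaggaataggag
The Hlf window held a CRE from 9 to 2 bases before the start, a motif found in 1.55% of 32851 windows of 250 bases. It also held 3 GC boxes, present in 32.7% of such windows, and 1 CCGGAA, present in 12.0%. Mecom held 2 GC boxes, which 22.2% of windows of 187 bases contain, Meis1 held 1 CCAAT, which 32.5% of windows of 234 bases contain, and Hoxa9 held 1 GC box. None of the 6 motifs was common to these 4 windows. A match describes the letters of the window only.

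Meis1 is a TALE homeodomain protein that joins HOX and PBX proteins on DNA and has a known role in megakaryocyte formation as well as in stem cells. Its level was 806 CPM in WT and 350 in cKO HSC/MPP-like cells (10771 and 3391 UMIs), a log2 ratio of -1.20 (-1.26 to -1.15). The highest class in both libraries was the megakaryocyte-like class, at 1210 CPM in WT and 664 in cKO, followed by HSC/MPP-like and then basophil and mast-like cells at 226 and 194 CPM. No intervals of those 3 classes overlapped within a library. Below them the order was stromal and endothelial-like cells at 121 and 104 CPM, then a group of monocyte-like, GMP and neutrophil progenitor-like, conventional dendritic-like and T, NK and innate lymphoid-like cells, whose intervals overlapped from neighbour to neighbour in the cKO library at 25.9 to 32.5 CPM. In the conventional dendritic-like class Meis1 was at 68.2 CPM in WT and 30.2 in cKO, a log2 ratio of -1.17 (-1.49 to -0.87). Erythroblast-like cells were lowest, at 4.10 and 3.57 CPM.

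Hoxa9 is a homeobox gene of the A cluster whose protein works with MEIS1 and PBX partners and whose level normally falls as progenitors mature. It stood at 64.3 CPM in WT and 69.5 in cKO HSC/MPP-like cells (860 and 674 UMIs), a log2 ratio of 0.11 (-0.04 to 0.26), so the class did not differ beyond counting error. Both libraries had their highest level in that class, and stromal and endothelial-like cells came next at 43.2 and 55.1 CPM, with overlapping intervals in the cKO library only. Outside the stem class, Hoxa9 was higher in the cKO library in monocyte-like cells (11.3 and 16.2 CPM), GMP and neutrophil progenitor-like cells (20.4 and 25.3 CPM) and erythroid progenitor-like cells (7.49 and 8.98 CPM). Those log2 ratios were 0.53, 0.31 and 0.26, each with an interval above 0 and none past 1.5-fold. Erythroblast-like cells passed it, at 1.65 and 3.30 CPM and a log2 ratio of 1.0 (0.46 to 1.55), but on 57 and 62 UMIs, and the median cell there held 18306 UMIs in WT and 7184 in cKO. The part of that depth gap, and of free RNA from other cells, in the erythroblast value was not tested.

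Hoxb5, a HOX gene of the B cluster used to mark long-term stem cells, gave only 97 UMIs in all kept cells, 76 in WT and 21 in cKO. That is 0.289 and 0.0827 CPM, a log2 ratio of -1.78 (-2.58 to -1.09). HSC/MPP-like cells held 8 and 5 of them and the intervals of most neighbouring classes overlapped, so no order of classes can be read for Hoxb5. The antisense gene Hoxb5os, which overlaps it, was at 96 and 13 UMIs in all kept cells. The sources used here do not say whether strands were counted apart, so the Hoxb5 reads cannot be told apart from those of Hoxb5os.

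Mecom encodes the zinc finger proteins EVI1 and MDS1-EVI1 and is needed for stem cell self-renewal. HSC/MPP-like cells were highest in both libraries, at 567 CPM in WT and 328 in cKO (7576 and 3178 UMIs), a log2 ratio of -0.79 (-0.85 to -0.73). The megakaryocyte-like class was next, at 292 and 187 CPM and a log2 ratio of -0.65 (-0.74 to -0.55), then basophil and mast-like cells at 42.2 and 58.2 CPM. In that last class the cKO library was the higher of the pair, with a log2 ratio of 0.46 (0.24 to 0.69), short of 1.5-fold. Monocyte-like cells were at 7.45 and 4.47 CPM. Erythroid progenitor-like and erythroblast-like cells had 2.08 to 3.18 CPM, and in the WT library their intervals overlapped those of the T, NK and innate lymphoid-like and conventional dendritic-like classes.

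Hlf, a PAR bZIP factor that is switched off as stem cells leave the multipotent state, had the largest whole-class ratio of the 6 measured factors. It was at 250 CPM in WT and 99.7 in cKO HSC/MPP-like cells (3344 and 967 UMIs), a log2 ratio of -1.33 (-1.43 to -1.22). The class held 57.7% of all WT Hlf UMIs and 46.9% of all cKO Hlf UMIs. Megakaryocyte-like cells were second in WT at 68.7 CPM and had 13.4 in cKO, a log2 ratio of -2.35 (-2.68 to -2.05). In T, NK and innate lymphoid-like cells Hlf was higher in the cKO library, at 46.6 and 76.6 CPM and a log2 ratio of 0.71 (0.39 to 1.05). Erythroid progenitor-like and erythroblast-like cells were the lowest in WT, at 1.70 and 0.896 CPM.

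The higher Hlf value of the lymphoid class came with a different make-up of that class. Nearly all of its Hlf UMIs lay in 1 cluster led by Il2ra, Gata3, Icos and Ccr9, with 113 of 121 UMIs in WT and 199 of 219 in cKO. That cluster held 90 WT and 241 cKO cells, and within it Hlf was at 200 CPM in WT and 173 in cKO, a log2 ratio of -0.21 (-0.55 to 0.14). Its WT level was close to that of HSC/MPP-like cells, and in the cKO library it was the highest cluster for Hlf. Only 72 of its 90 WT cells and 80 of its 241 cKO cells held the 5000 UMIs needed for thinning, so most cKO cells were left out. Of the cells thinned to that depth, 45.8% in WT and 46.3% in cKO kept a Hlf UMI.

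Tcf15, a basic helix-loop-helix factor that marks quiescent stem cells in reporter mice, was measured in megakaryocyte-like and erythroid progenitor-like cells only. Megakaryocyte-like cells had 8.13 CPM in WT and 5.01 in cKO (56 and 39 UMIs), a log2 ratio of -0.69 (-1.33 to -0.08). HSC/MPP-like cells gave 19 and 9 UMIs, too few for a ratio. In erythroid progenitor-like cells Tcf15 was at 0.609 and 0.589 CPM.

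Mycn, the MYC family member that stem cells express beside Myc, was also highest in megakaryocyte-like cells, at 28.3 CPM in WT and 32.7 in cKO (195 and 254 UMIs). HSC/MPP-like cells followed with 7.26 and 4.64 CPM (97 and 45 UMIs), a log2 ratio of -0.64 (-1.19 to -0.12). Every other class was below 1.3 CPM in both libraries, with overlapping intervals. The Mycn value rests on few molecules, and it turned to 0.063 when the clusters were drawn more coarsely.

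Mllt3, also known as AF9, is a YEATS-domain protein of the elongation machinery and the broadest of the 8 in these cells. T, NK and innate lymphoid-like cells were highest at 523 CPM in WT and 508 in cKO, followed by erythroid progenitor-like cells at 345 and 278 and erythroblast-like cells at 337 and 325. HSC/MPP-like cells had 170 CPM in WT and 111 in cKO (2275 and 1076 UMIs), a log2 ratio of -0.62 (-0.72 to -0.51). Megakaryocyte-like cells had 207 and 114 CPM, a log2 ratio of -0.87 (-0.99 to -0.74). GMP and neutrophil progenitor-like and monocyte-like cells were lowest, at 40.7 to 48.4 CPM. Over all kept cells Mllt3 was alike in the libraries, at 211 and 207 CPM.

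**Figure D1:**
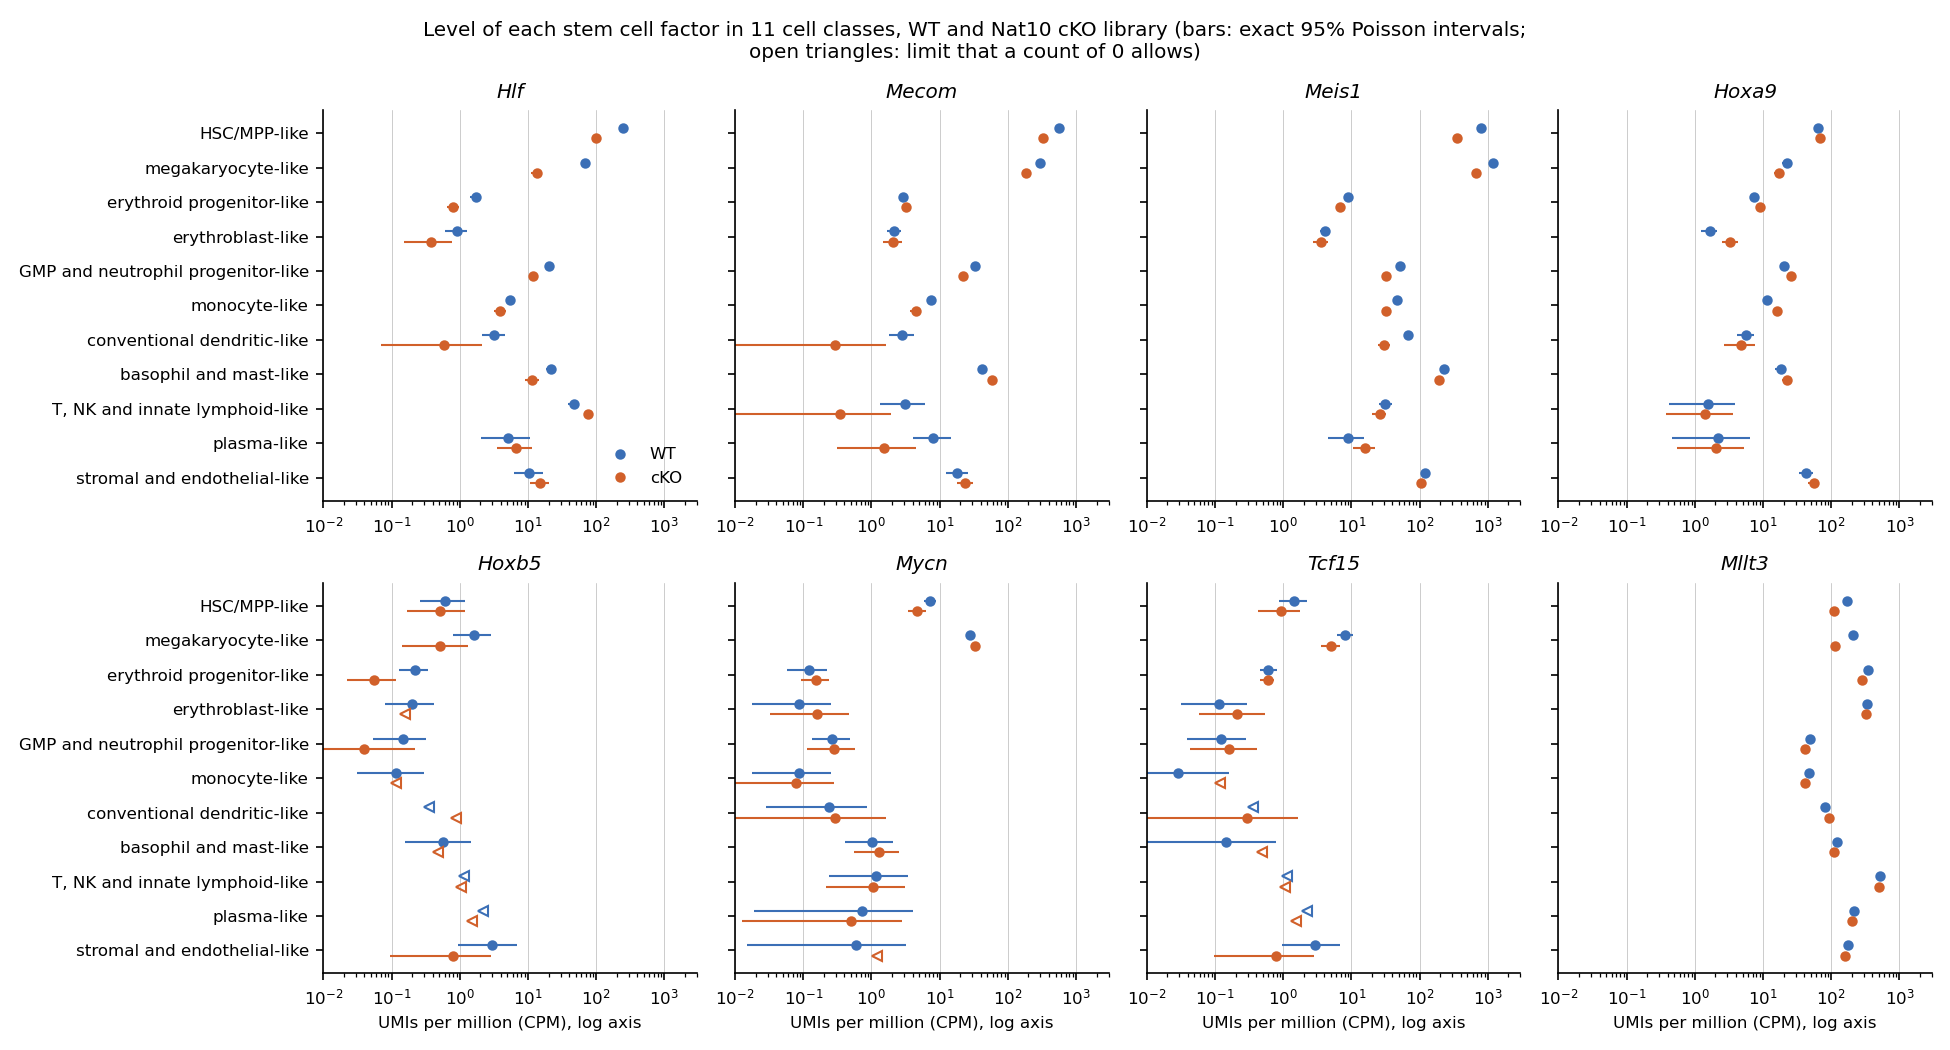
Level of each factor in CPM (log axis) in 11 cell classes, 1 point per library with its exact 95% Poisson interval, cut at the axis where it reaches lower; open triangles are the limits that a count of 0 allows. Hlf, Mecom and Hoxa9 peak in HSC/MPP-like cells, Meis1, Mycn and Tcf15 in megakaryocyte-like cells, and Mllt3 in lymphoid-like and erythroid cells.

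The megakaryocyte-like class had the same number of lower factors as the stem class: Hlf, Mecom, Meis1, Tcf15 and Mllt3, 5 of 7 measured, beside 13.1% of its 11306 genes lower and 7.58% higher. Its cells came from 2 clusters in unequal parts, with 225 of 294 WT cells and 168 of 325 cKO cells in a cluster whose leading genes include Trpc6, Med12l and Dlg2. Within that cluster Hlf was at 70.6 CPM in WT and 16.2 in cKO, a log2 ratio of -2.12 (-2.45 to -1.81). Meis1 was at 1244 and 763 CPM there, a log2 ratio of -0.70 (-0.76 to -0.65), and Mllt3 at 209 and 114 CPM, a log2 ratio of -0.87 (-1.0 to -0.74). For these 3 genes the lower cKO value was therefore also seen within that cluster. Meis1 went the other way in the second cluster, led by Ppbp and Clec1b, at 164 CPM in WT and 262 in cKO (36 and 404 UMIs). Mecom, at 302 and 232 CPM, and Tcf15, at 8.25 and 6.25 CPM, were within 1.5-fold in the first cluster.

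In the other classes fewer factors passed 1.5-fold. GMP and neutrophil progenitor-like cells had Hlf and Meis1 lower, 2 of 5 measured, beside 9.75% of genes lower and 2.2% higher. Hlf alone was lower in basophil and mast-like cells (1 of 5, beside 5.2% of genes lower and 4.18% higher) and in erythroid progenitor-like cells (1 of 6, beside 6.55% and 2.36%). Meis1 alone was lower in conventional dendritic-like cells (1 of 3, beside 7.15% and 3.49%), and Mecom alone in monocyte-like cells (1 of 5, beside 10.9% and 3.14%). Hlf was the 1 factor of 3 higher in the lymphoid-like class, beside 10.2% of its genes higher and 5.26% lower, and Hoxa9 the 1 of 4 higher in erythroblast-like cells, beside 5.12% and 3.22%. In plasma-like and stromal and endothelial-like cells no measured factor passed in either direction, beside 16.2% and 7.69% of genes lower and 3.65% and 8.81% higher.

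Over all kept cells, without any clusters, 4 of the 8 factors were at least 1.5-fold lower in the cKO library, beside 13.2% of 21256 genes lower and 5.89% higher. They were Hlf (22.0 and 8.13 CPM, log2 ratio -1.44), Meis1 (128 and 62.0 CPM, -1.04), Mecom (50.8 and 27 CPM, -0.91) and Hoxb5. Hoxa9 was at 15 CPM in both libraries. Mycn, at 1.71 and 1.52 CPM, and Tcf15, at 0.548 and 0.544 CPM, had intervals of the ratio that held 0. Such sums mix the level per cell with the number of cells of each class, and fewer cells of a type and less RNA per cell cannot be told apart in them.

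The HSC/MPP-like class was next divided into 5 subclusters, again without the 8 factors, lettered A to E by the summed WT level of the 34 fixed HSC/MPP markers. Hlf, Mecom, Meis1, Hoxa9 and Mllt3 formed 1 gradient through them. In the WT library Hlf ran from 577 CPM in subcluster A through 266 in B, 138 in C and 76.8 in D to 36.5 in E. Mecom ran from 1398 through 565, 277 and 164 to 45.3 CPM, and Meis1 from 1452 through 1094, 529 and 332 to 190 CPM. Hoxa9 fell far less, from 101 CPM in A to 35.4 in E. That marker sum, which sets the letters, fell from 11122 to 2857 CPM in WT and from 10449 to 2791 in cKO, while Mpo, a granule enzyme of myeloid progenitors, was lowest in A and highest in E in both libraries. The clustering used those genes, so they only describe the order.

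The 2 libraries filled this gradient differently. Subclusters A, B and C held 178, 136 and 116 of the WT cells and 18, 33 and 47 of the cKO cells. Subclusters D and E held 105 and 31 WT cells and 133 and 111 cKO cells. As shares of the class, A was 31.4% in WT and 5.26% in cKO, and E was 5.48% and 32.5%. Genes that lead A, such as Prdm16 and Nkx2-3, were themselves lower in the cKO class (log2 ratios -1.84 and -2.40), so a smaller subcluster and a lower level of the genes that define it cannot be told apart. The counts serve here as the cells behind each value, and no change in cell number is read from them.

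Within the subclusters Mecom was higher in the cKO library in 5 of 5. It was at 1398 CPM in WT and 1688 in cKO in A, 565 and 827 in B, 277 and 531 in C, 164 and 246 in D, and 45.3 and 69.8 in E. The log2 ratios were 0.27 (0.15 to 0.39), 0.55 (0.42 to 0.68), 0.94 (0.79 to 1.09), 0.59 (0.43 to 0.74) and 0.61 (0.14 to 1.14). This is opposite to the whole-class ratio of -0.79. The cKO value of A comes from 18 cells, under the 20 cells set as the minimum for a call. In the remaining 4 Mecom passed 1.5-fold upward in C, D and E, where 3.93%, 2.82% and 4.48% of genes were higher. In B it did not pass, and 6.13% of genes were higher.

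Hoxa9 was likewise higher in the cKO library in 5 of 5 subclusters. In A it was at 101 CPM in WT and 152 in cKO, in B at 60.3 and 83.8, in C at 60.2 and 82.3, in D at 43.9 and 64.0, and in E at 35.4 and 58.3. The log2 ratios lay between 0.45 and 0.70, each with an interval above 0. Hoxa9 passed 1.5-fold in E among the 4 subclusters with at least 20 cells. The whole-class ratio near 0 thus sat below every ratio inside the class.

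Hlf and Meis1 did not share that direction. Hlf was at 577 and 536 CPM in A, a log2 ratio of -0.10 (-0.32 to 0.11), and at 266 and 210 in B, a log2 ratio of -0.34 (-0.59 to -0.10). It was at 138 and 157 CPM in C and at 76.8 and 84.9 in D, with intervals that held 0. Only the most Mpo-rich subcluster, E, had Hlf more than 1.5-fold lower in the cKO library, at 36.5 and 18.8 CPM (33 and 62 UMIs), a log2 ratio of -0.97 (-1.59 to -0.30). Meis1 was lower in the cKO library in A (1452 and 875 CPM, -0.73), B (1094 and 799, -0.45), C (529 and 449, -0.23) and E (190 and 114, -0.73), and higher in D (332 and 371, 0.16). In E, where Hlf and Meis1 were the 2 lower factors of 5 measured, 9.89% of genes were lower. In C, B and D, where 8.36%, 9.09% and 7.69% of genes were lower, no factor was.

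Mllt3 had no common direction within the class. Its log2 ratio was 0.76 in A (333 and 563 CPM), 0.14 in B, -0.25 in C, 0.39 in D and -0.36 in E. Mycn gave 69 and 14 UMIs in A and fewer than 50 in each of the others, and its level in A was 21.5 CPM in WT and 37.3 in cKO.

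**Figure D2:**
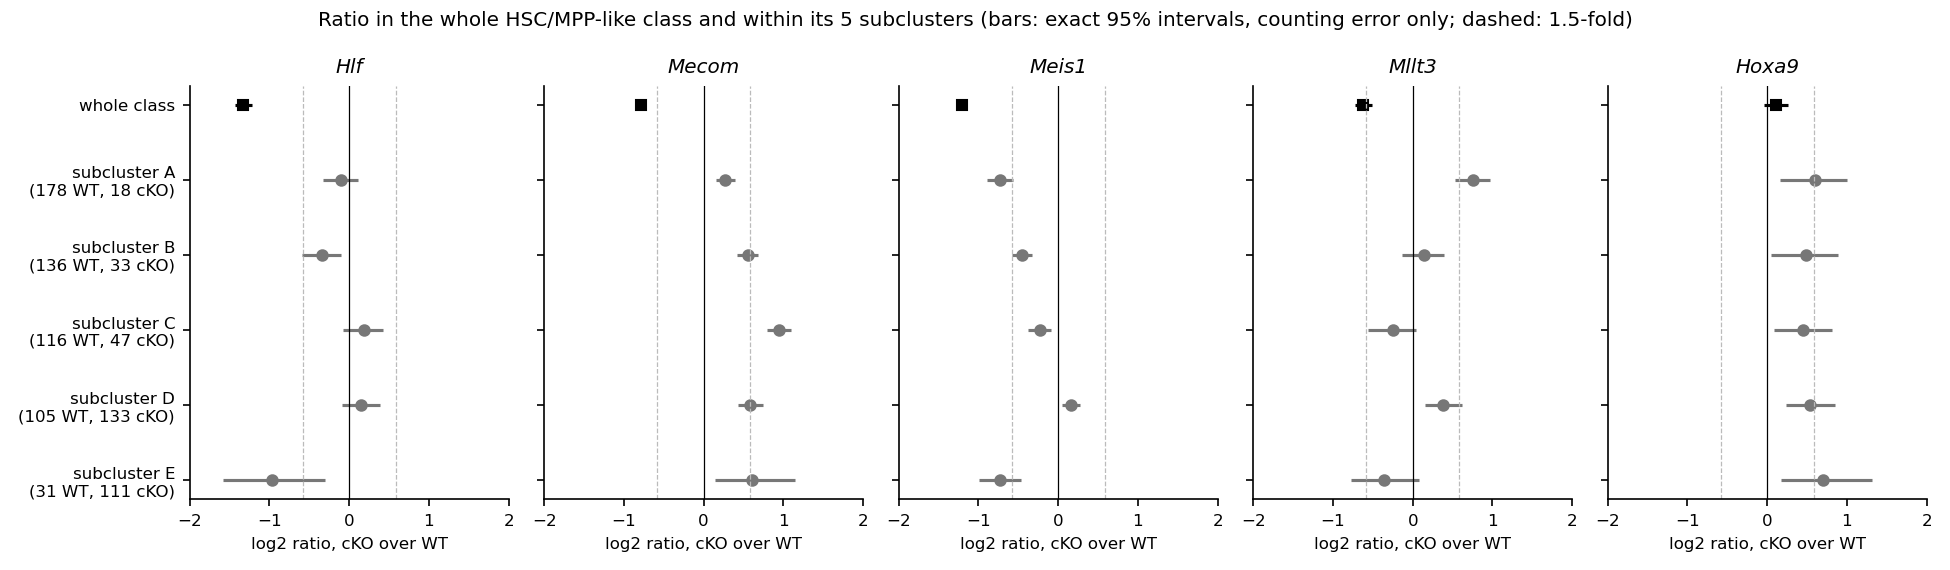
Log2 ratio of cKO over WT for 5 factors in the whole HSC/MPP-like class (squares) and in its 5 subclusters (circles), with exact 95% intervals for counting error and dashed lines at 1.5-fold. Mecom lies at -0.79 in the whole class and between 0.27 and 0.94 in the subclusters, and Hoxa9 between 0.45 and 0.70.

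**Figure D3:**
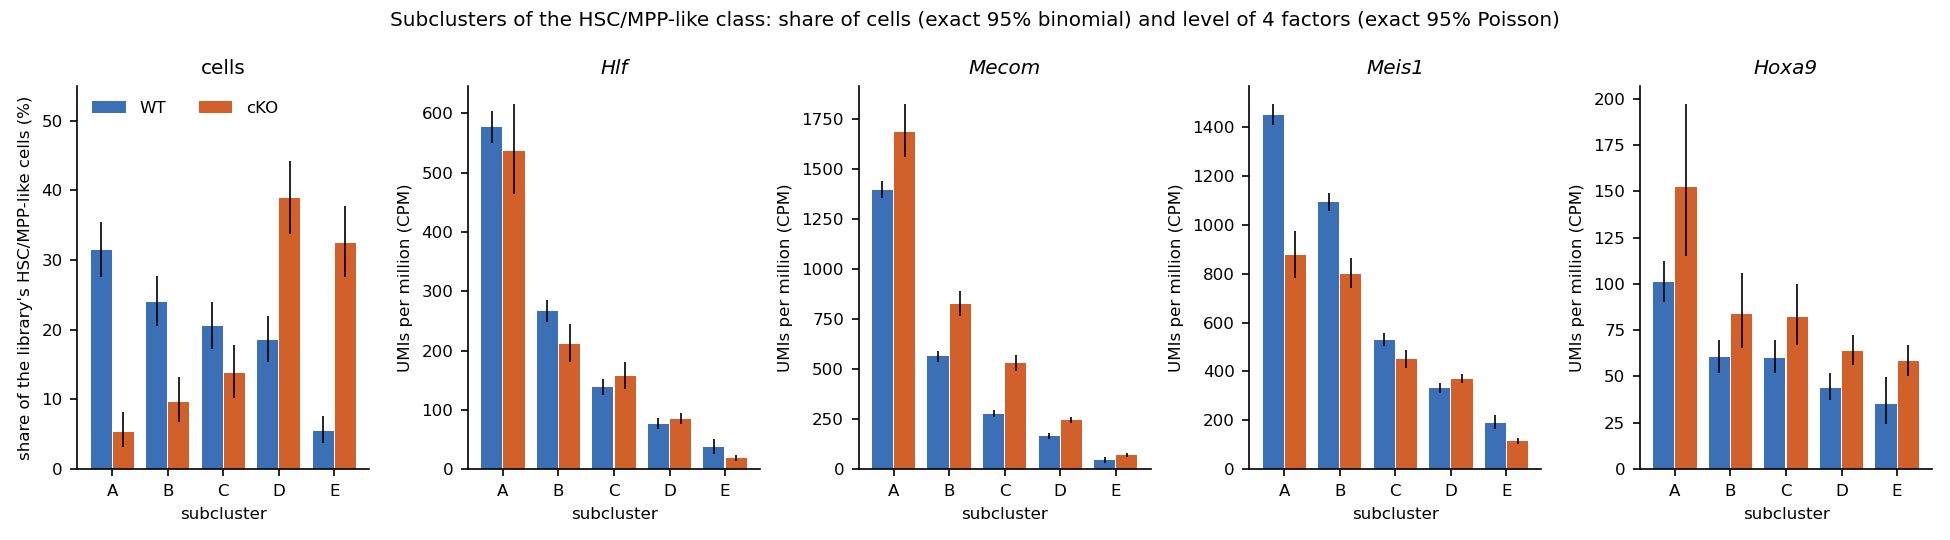
Left, share of each library's HSC/MPP-like cells in the 5 subclusters (%), with exact 95% binomial intervals; right, level of Hlf, Mecom, Meis1 and Hoxa9 in CPM with exact 95% Poisson intervals. WT cells fill the subclusters with the highest levels (31.4% in A, 5.26% of cKO cells) and cKO cells those with the lowest (32.5% in E, 5.48% of WT cells).

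Weighting the subclusters alike in both libraries gave the same picture in 1 number per gene. With the WT levels averaged over the cKO mix of subclusters, the log2 ratio was 0.58 for Mecom, 0.57 for Hoxa9, 0.17 for Mllt3, -0.093 for Hlf and -0.25 for Meis1. The opposite weighting averaged cKO levels over the WT mix, with the level of A from 18 cells. It gave 0.45, 0.54, 0.43, -0.10 and -0.45 in that order. No measured factor then remained 1.5-fold lower. With the class cut into 3 coarser subclusters, Mecom and Hoxa9 were higher in the cKO library in 3 of 3. Hlf (-0.93 to -0.076) and Meis1 (-0.72 to -0.24) were lower in 3 of 3. Intervals lay above 0 in 3 of these for Mecom and 2 for Hoxa9, and below 0 in 2 for Hlf and 3 for Meis1. With 10 finer subclusters, 4 of them had at least 20 cells in both libraries. Mecom was higher in 3 and Hoxa9 in 4 of those 4, with a lowest log2 ratio of -0.21 for Mecom and 0.071 for Hoxa9. The interval lay above 0 in 3 of the 4 for Mecom but in 1 of the 4 for Hoxa9. In the same 4, Meis1 was lower in 4, 1 of them with an interval below 0, and Hlf in 2.

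Other values moved with genotype inside the class. In the same 5 subclusters Mpo was lower in the cKO library (305 and 107 CPM in A, 4590.5 and 2841 in E) and Cd48, a surface protein of multipotent and later progenitors, was higher (47.8 and 90.7 CPM in A, 75.2 and 128 in E). The HSC/MPP marker list as a whole had 22 of 33 measured genes lower and 1 higher, with a median of -0.78 and a sum of 7310 CPM in WT and 4741 in cKO. The erythroid progenitor list had 3 of 24 lower and 2 higher (1432 and 1479 CPM), the GMP and neutrophil progenitor list 2 of 18 lower and 4 higher (7650.05 and 8290.36 CPM), and the megakaryocyte list 10 of 18 lower and none higher (2329.7 and 1519 CPM). Their part in the ratios of the 8 factors was not tested.

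At the level of single cells, depth was made equal by thinning each HSC/MPP-like cell to 5000 UMIs, which left out 20 WT and 5 cKO cells. Hlf was then detected in 57.3% (53.1 to 61.5) of 546 WT cells and 31.8% (26.8 to 37.0) of 337 cKO cells. Without thinning the shares were 84.6% and 67.3%. In erythroblast-like cells, which should lack Hlf, 0.477% and 0.111% of thinned cells had a UMI, so neither stem class share is at background. Detected cells also held fewer molecules: a Hlf-positive thinned cell carried 3.04 Hlf UMIs on average in WT and 1.88 in cKO. These single-cell values are over the whole class and carry its change of subclusters, so they do not give the difference between like cells.

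Mecom was detected in 70.9% and 51.6% of thinned cells (85.5% and 75.1% unthinned), and Meis1 in 89.7% and 67.7% (98.8% and 92.4% unthinned). Mllt3 was detected in 48.5% and 36.8%, and in erythroblast-like cells in 73.4% and 67.3%, which are cells that express it. Hoxa9 was detected in 27.1% (23.4 to 31.0) and 28.8% (24.0 to 33.9), with 0.715% and 1.33% in erythroblast-like cells. Unthinned, Hoxa9 was at 66.6% and 75.7%, in cells that were deeper in the cKO library. The part of depth in that gap was not tested. Mycn was found in 5.49% and 3.86% of thinned cells, Tcf15 in 0.733% and 0.593%, and Hoxb5 in 0.549% and 0.297%, that is in at most 4 cells of a library for the last 2.

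Cells that carried several factors at once made up a smaller share of the whole class in the cKO library. That share too carries the unequal mix of subclusters, and shares within subclusters are not reported here. At 5000 UMIs, 66.5% (62.4 to 70.4) of WT and 39.8% (34.5 to 45.2) of cKO HSC/MPP-like cells had a UMI of at least 3 of the 8 factors. At least 4 were seen in 37.5% and 17.8%, and none in 2.38% and 8.61%. The median cell had 3 factors in WT and 2 in cKO, and erythroblast-like cells had at least 3 in 0.0795% and 0.222%. The pattern was not particular to the stem class, since megakaryocyte-like cells had at least 3 in 53.8% of WT and 28.6% of cKO cells. In the unnamed cluster led by Pdzph1 and Kif26b the shares were 23.1% and 24.1%. Among HSC/MPP-like cells, factors went together within a library. Of WT cells with Hlf, 78.9% had Mecom, beside 60.1% of those without, and in cKO the shares were 69.2% and 43.5%. Hoxa9 was less tied to Hlf, present in 29.7% of WT cells with Hlf and 23.6% without, and in 34.6% and 26.1% of cKO cells.

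**Figure D4:**
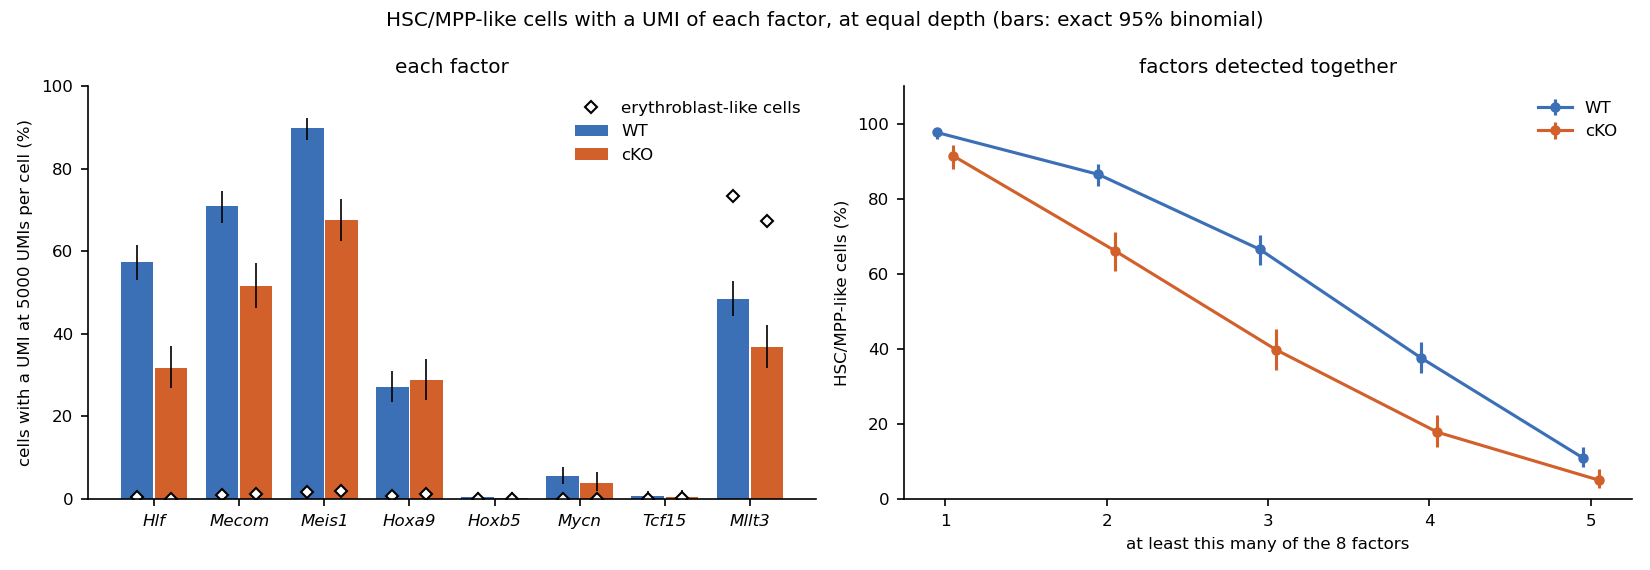
Left, share of HSC/MPP-like cells with a UMI of each factor after thinning to 5000 UMIs per cell (%); right, share with at least 1 to 5 of the 8 factors, both with exact 95% binomial intervals. Hlf is at 57.3% of WT and 31.8% of cKO cells, Hoxa9 is at 27.1% and 28.8%, and cells with at least 3 factors at 66.5% and 39.8%. All shares are over the whole class, with its unequal mix of subclusters.

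The span of a gene on the chromosome moved with the ratio in this class. Genes over 300 kb had a median log2 ratio of -0.74, those of 100 to 300 kb -0.46, those of 30 to 100 kb -0.28 and those of 3 to 10 kb 0.065. UMIs of genes over 100 kb made up 18.9% of the WT and 13.2% of the cKO class. Mecom spans 597 kb, and 47.0% of the genes in its span class had a lower ratio, so its whole-class value is near the middle of genes of its size. Mllt3, at 263 kb, had 30.3% of its span class below it. Hlf, at 54.4 kb, had 1.87% and Meis1, at 139 kb, had 6.94%, which places both toward the low end for their size. Mycn spans 5.82 kb and had 10.9% of its span class below it, and Hoxa9, at 7.99 kb, had 53.1%. In the megakaryocyte-like class genes of 100 to 300 kb had a median of -0.41. There 11.4% of the span class lay below Meis1, 11.3% below Mllt3, 44.7% below Mecom and 0.061% below Hlf.

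Inside subcluster D, the one with the most cKO cells, the median was nearer 0 than in the whole class for genes over 10 kb, at -0.25 over 300 kb, but not for shorter ones, at 0.081 from 3 to 10 kb. Mecom there had 95.3% of genes of its span class below it, Mllt3 96.8%, Hoxa9 94.3%, Meis1 90.5% and Hlf 86.0%. UMIs of genes over 100 kb were 15.6% of the WT and 13.3% of the cKO subcluster. Other subclusters differed from D. In E, 2.37% of the span class lay below Hlf, 5.95% below Meis1 and 22.6% below Mllt3, but 93.8% below Mecom and 96.5% below Hoxa9. For Hlf and Meis1 the shares were 23.5% and 18.9% in B, and 82.5% and 34.3% in C. The part of gene span in any of these ratios was not tested.

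**Figure D5:**
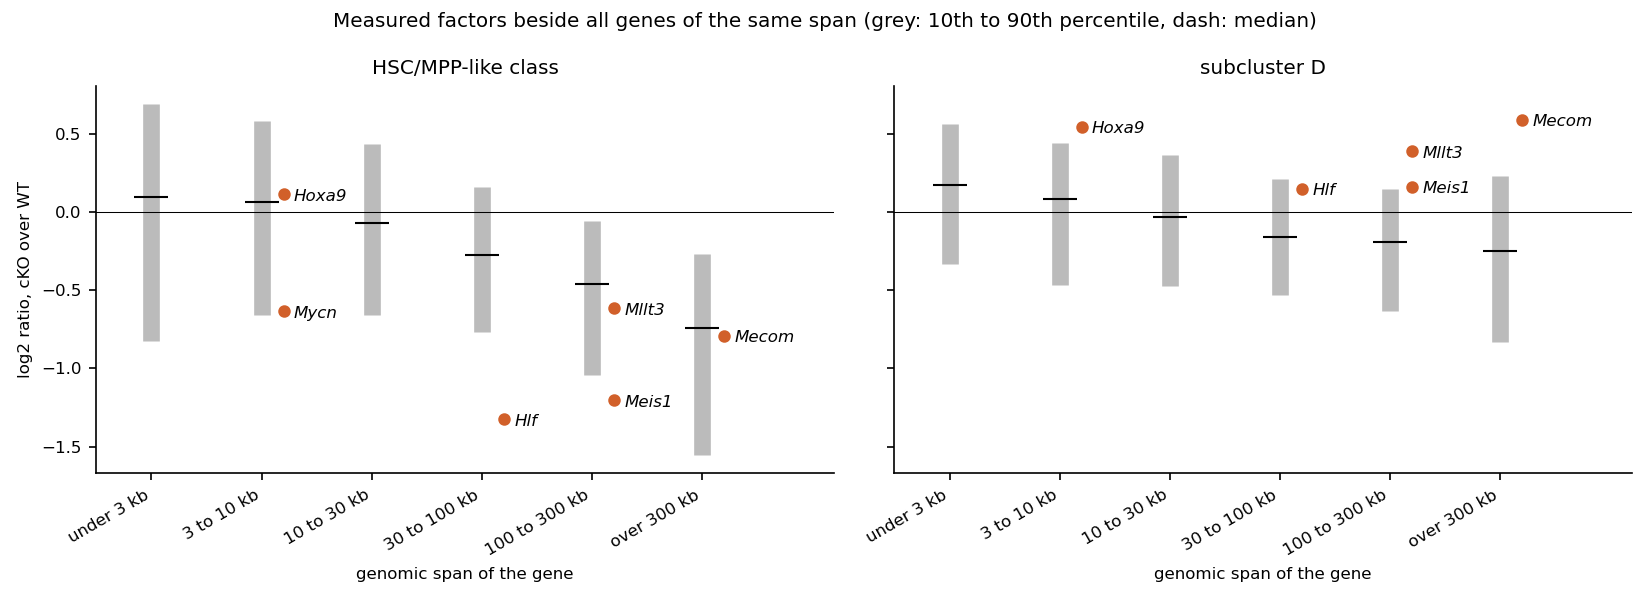
Log2 ratio of cKO over WT of the measured factors (points) beside all measured genes by genomic span (grey, 10th to 90th percentile; dash, median), in the whole HSC/MPP-like class and in subcluster D. In the class Mecom lies near the median of genes over 300 kb (-0.79 and -0.74) and Hlf and Meis1 lie low; in D Mecom, Mllt3 and Hoxa9 lie high for their span.

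Genes that act with the 8 factors were examined in the HSC/MPP-like class from lists arranged by role, against the same 18.3% lower and 4.89% higher and the median of -0.18. Of 19 other HOX genes 6 were measured and 3 were lower, none higher, with a median of -0.57. Hoxb3 (6.13 and 2.89 CPM, -1.07), Hoxa3 (-0.79) and Hoxa5 (9.65 and 5.67 CPM, -0.76) were lower, while Hoxb4 (-0.38), Hoxa10 (-0.28) and Hoxa7 (45.9 and 50.6 CPM, 0.14) were not past 1.5-fold. With a minimum of 200 UMIs only 2 of these genes were measured, 0 were lower and the median was -0.12. Hoxa7, next to Hoxa9 in the A cluster, thus had a whole-class ratio close to that of Hoxa9. Of the TALE cofactors, Pbx2 was at -0.41, Pbx3 at -0.20 and Pknox1 at -0.13, none of these past 1.5-fold.

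Among the relative and corepressors of Mecom, 3 of 8 were lower, none higher, with a median of -0.08. These were the repressors Skil (57.2 and 12.4 CPM, -2.20) and Ski (102 and 34.3 CPM, -1.58) and the PRDM relative Prdm16 (62.4 and 17.4 CPM, -1.84), itself needed by stem cells. Ctbp2, which binds EVI1, was at 0.16, and the histone methyltransferase Suv39h1 at 0.46. Of the 3 PAR bZIP relatives of Hlf, Tef was lower (11.1 and 6.80 CPM, -0.71), Dbp was at -0.45 and the related repressor Nfil3 at 0.07, a median of -0.45. In the MYC network 1 of 10 was lower and 1 higher, with a median of -0.17. The MYC antagonist Mxd4 was lower (56.3 and 30.4 CPM, -0.89) and Mxd3, on 35 and 42 UMIs, was higher (0.72), while Mga was at -0.54 and Myc itself at 85.4 and 99.7 CPM (0.22).

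Of the 21 listed partners of Mllt3, from elongation and other chromatin complexes, 6 were lower and none higher, with a median of -0.35. Mllt6 (16.9 and 7.83 CPM, -1.10) and the scaffold Aff4 (194 and 103 CPM, -0.91) were lowest, and the elongation kinase Cdk9 (0.21) and menin, Men1 (0.19), were highest. Of 6 partners and inhibitors of Tcf15, the inhibitor Id3 (4.11 and 1.24 CPM, -1.69) and the partner Tcf12 (396 and 263 CPM, -0.59) were lower, Id1 (10.2 and 15.6 CPM, 0.61) was higher and Tcf3 was at 0.06, with a median of -0.38. With a minimum of 200 UMIs that list had 1 of 4 lower and a median of -0.24. Of 45 measured genes in a list of further stem cell transcription factors, 19 were lower and none higher, with a median of -0.51. The ends of that list were the early growth response gene Egr1 (140 and 23.0 CPM, -2.61) and the homeobox gene Nkx2-3 (19.8 and 3.71 CPM, -2.40), and on the other side Trp53 (0.16) and Hmga2 (214 and 270 CPM, 0.34). These lists were read on the whole class and carry its change of subclusters.

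Levels across classes were also compared gene by gene, over 22 points from 11 classes and 2 libraries. Points of 1 library share its preparation and depth and the classes differ greatly in RNA content, so the correlations are descriptions. Nearest to Mecom were Myct1 (Pearson r = 0.97), Creb5 (0.939) and Muc13 (0.904), all of which peak in the stem class, and Myct1 is one of the markers that named it. Among the genes nearest to Meis1 were Fnbp1l (0.902) and Creb5 (0.901). Hlf was nearest to Mir155hg (0.915), Trp53bp1 (0.908) and Bbx (0.903), and Hoxa9 to Marcksl1 (0.924), Vkorc1 (0.919) and Pter (0.911). Among the genes nearest to Mycn were Robo3 (0.904) and Zfand5 (0.895), and Tcf15 was nearest to Mmrn1, a platelet granule protein (0.957), with Slc35d3 (0.941) and Trpc6 (0.931). Mllt3 was nearest to Ascc3 (0.93), Jmy (0.919) and Rnf145 (0.907). No gene is named for Hoxb5, whose order of classes cannot be read. Ranked by Spearman's rho instead, all 3 nearest genes stayed for Mllt3, 2 of 3 for Hlf and for Mecom, and 0 of 3 for Meis1, Hoxa9, Mycn and Tcf15. Robo3, for example, had a rho of 0.237 with Mycn and Mmrn1 one of 0.678 with Tcf15. Among the factors themselves Mecom and Meis1 were the most alike (0.86), and Mllt3 had r between -0.497 and 0.0875 with the other 7.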

How the data were processed

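UMI counts per gene and barcode are the authors' deposited matrices, 1 per genotype. Per the submitters' processing notes they were made with Cell Ranger 7.1.0 on mm39; annotation, intron and strand settings and cell calling are not given in the sources used here. Members and gene lists were chosen with earlier results of these data known.

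Barcodes needed 1000 UMIs, 500 genes and no more than 10% mitochondrial UMIs, and doublets called with Scrublet in scanpy 1.11.5 were removed. Cells were clustered (2000 variable genes without the 8 factors, 30 components, 15 neighbours, Leiden resolution 1.5; subclusters 0.5) and named from fixed markers. Clusters tied between classes stayed unnamed, which was decided with the clusters in view. Sums and ratios with exact intervals used scipy 1.17.1, and TMM scaling used edgeR 4.0.16. The code was tested on simulated data. Named genes were the 8 factors, the 2 highest and 2 lowest of each related list, every HOX, TALE, PAR bZIP and MYC gene past 1.5-fold, and the 3 genes most like each factor; some genes that this rule names are not reported here. Spans come from GENCODE vM21, matched by gene ID for 91.8% of genes. Alternatives were other clusterings, scalings, filters, mixes and a marker-score class. Genes overlapping Mecom, Meis1 or Hoxb5 may share reads with them.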

Additional observations from a re-analysis of the deposited data

How the results depend on the processing

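No paired analysis was possible because each genotype had 1 library, which also left none to leave out. The whole-class log2 ratios of the HSC/MPP-like class depended most on which cells were set against each other. With the WT mix of subclusters they were -0.10 for Hlf, 0.45 for Mecom, -0.45 for Meis1, 0.54 for Hoxa9, 0.97 for Mycn and 0.43 for Mllt3. The next 4 settings were chosen after seeing the data. With the cKO mix the values were -0.093, 0.58, -0.25, 0.57, 1.252 and 0.17 in that order, with the cKO mix at subcluster resolution 0.25 they were -0.25, 0.34, -0.40, 0.53, 0.98 and 0.031, and at 1.0 they were -0.40, 0.46, -0.34, 0.51, 0.79 and 0.22. With the unnamed cluster led by Pdzph1 and Kif26b added to the class, Mecom was at -0.70, Meis1 at -0.98 and Mllt3 at -0.42.

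With 906 cells chosen by marker score, 512 of them in the class and 682 within 10% of the cut, Hlf was at -0.90, Mecom -0.44, Meis1 -0.85, Hoxa9 -0.042, Mycn -0.017 and Mllt3 -0.31. Leiden resolution 1.0 gave Hlf -1.03, Mecom -0.40, Meis1 -0.76, Mycn 0.063 and Mllt3 -0.37, and resolution 2.5 gave Hlf -1.48 and Mecom -0.92. With doublets kept, Hlf was at -1.19, Mecom -0.63, Meis1 -0.96 and Mllt3 -0.45. TMM scaling, which shifts every ratio by 0.20 in this class, gave Hlf -1.13, Mecom -0.60, Meis1 -1.01, Hoxa9 0.31 and Mllt3 -0.42. Weighing every cell alike gave Mecom -1.01, Meis1 -1.33 and Mllt3 -0.76, and keeping the factors among the variable genes gave Mecom -0.64 and Meis1 -1.05. Of the 6 factors, 5 were 1.5-fold lower as reported, with every cell alike, with stricter cell filters and at resolution 2.5, 4 with the unnamed cluster, 3 with doublets, TMM or the factors kept, 2 at resolution 1.0 or by score, and 0 with either mix. Over all kept cells Mllt3 turned to 0.069 with TMM and 0.042 with every cell alike. Of the related lists, 1 of 6 HOX genes, 3 of 8 relatives and corepressors of Mecom and 1 of 21 partners of Mllt3 were past 2-fold lower. So were 1 of 6 partners and inhibitors of Tcf15 and 8 of 45 further stem cell factors. In the MYC network 0 of 10 genes passed, and of the PAR bZIP relatives 0 of 3, beside 5.83% of all genes. The causes were not tested. Counting error is small for Hlf, Mecom, Meis1 and Mllt3; Hoxb5, Tcf15 and Mycn are limited by depth in the stem class, and nothing here measures the spread between mice.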

Other observations

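An unnamed cluster led by Pdzph1, Kif26b, Slc22a3 and Parm1 (314 WT and 226 cKO cells) had a Meis1 level of 742 CPM in WT and 524 in cKO. That was below the HSC/MPP-like cluster in WT (806 CPM) and above it in cKO (350 CPM). Mecom in it was at 105 and 113 CPM, a log2 ratio of 0.11 (-0.08 to 0.29), and Hlf at 21.7 and 5.71 CPM (120 and 22 UMIs), a log2 ratio of -1.90 (-2.66 to -1.26).

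In a stromal cluster led by Pdzrn4, Csmd1, Gpc6 and Rbms3, Mecom gave 5 UMIs in 84 WT cells and 48 in 215 cKO cells, or 5.18 and 26.7 CPM. Another stromal cluster, led by Serping1 and Adipoq, went the other way, at 63.6 CPM in WT and 24.9 in cKO (24 and 11 UMIs), and the whole class was at 18.1 and 23.8 CPM. Hoxa9 in the first of these clusters was at 61.1 and 70.1 CPM, close to its level in HSC/MPP-like cells.

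Antisense genes that overlap the factors gave few UMIs in the HSC/MPP-like class, here as sums over 566 WT and 342 cKO cells, not scaled to depth. Mecomos, antisense to Mecom, had 57 UMIs in WT and 33 in cKO, and the antisense genes Gm16140 and Gm16141 of Meis1 had 50 and 31 and 51 and 37 UMIs.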
